A study of Mus musculus with 23 samples.

Results

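Voltage-gated calcium and sodium channels open when the membrane depolarizes, and the genes for their subunits were followed here in the hippocampus of mice given alcohol with or without urolithin A (UA), a metabolite that gut bacteria make from ellagitannins. Members were chosen by gene symbol: rows whose symbol starts with Cacna, Cacnb or Cacng, and rows named Scn, a number and a or b. This rule found 40 of the 19733 genes in the table, 26 of calcium channels and 14 of sodium channels. RNA was sequenced from 23 male wild-type C57BL/6J mice, acquired at 6 weeks of age and kept for 16 weeks on liquid diets of the AIN93M type, followed by 1 week of behavioural tests. The 9 Ctrl mice received control diet and the vehicle CMC-Na by gavage, the 7 EtOH mice ethanol diet and the same vehicle, and the 7 EtOH-UA mice ethanol diet and UA at 200 mg/kg/day by gavage. All groups therefore shared the strain, the sex, the liquid feeding, the gavage and the tests. Columns of the table name a mouse's group but no replicate number, so mice are described by group.

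A calcium channel is built around a pore-forming alpha1 subunit, which senses voltage and passes the ion. An intracellular beta subunit and an extracellular alpha2delta subunit bring the pore to the membrane and shape its gating. The Cacng family was named for a gamma subunit of the muscle channel, but several of its members are known as TARPs, proteins that accompany AMPA-type glutamate receptors at synapses. Sodium channels consist of a pore-forming alpha subunit and beta subunits that span the membrane once and also act as adhesion molecules. In hippocampal neurons, sodium channels start and carry the action potential, and calcium channels at the terminals couple it to transmitter release.

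Expression is given in FPKM, a fragment count divided by transcript length and library size, so levels of different genes can be set side by side within a mouse. Summed FPKM ranged from 327896 to 404609 and 16996 to 17413 genes were above 0 in a mouse. As a rough guide to depth, in 13 of 682 short genes with 1 annotated transcript the low values were whole multiples of 1 step (within 0.0055 FPKM), which puts 1 FPKM at about 16.9 fragments per kilobase (quartiles 16.6 and 17.2). The sample annotations name hippocampus, and all 6 neuronal markers (from 77.7 FPKM for Rbfox3 to 1102 FPKM for Snap25) and all 8 subfield markers (from 2.73 FPKM for Zbtb20 to 144 FPKM for Pcp4) were present. Of the markers of other tissues that use some members, 5 of 6 for skeletal muscle, 4 of 4 for heart muscle, 4 of 5 for peripheral nerve and ganglia and 4 of 4 for retina had means below 1 FPKM. Markers of other brain regions were present. For septum and thalamus 2 of 6 were below 1 FPKM (from 0.32 FPKM for Zfhx3 to 25.1 FPKM for Calb2). For striatum 0 of 4 were (from 1.95 FPKM for Drd1 to 26.8 FPKM for Ppp1r1b). The part of such regions in the values of the members was not tested. In bulk tissue, fewer cells of a type and less RNA per cell cannot be told apart.

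Some libraries stood apart in a way that touched these genes. For each mouse, the slope of its deviation in log2(FPKM + 0.1) on the log2 length of each gene's longest transcript was computed over all genes tested. It lay between -0.06 and 0.07 in 20 mice, and was -0.21 and -0.11 in 2 EtOH-UA mice and -0.09 in 1 EtOH mouse. The EtOH-UA mouse at -0.21 also had the highest summed FPKM. Long transcripts were thus low in these libraries relative to short ones, and the channel genes are long: the median of their longest transcripts was 6425 bases, against 3333 bases over all genes tested. Each comparison is therefore also given without these 3 mice, a setting chosen after the data had been seen. RNA integrity was not among the values used, and its part in the slope was not tested.

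Mean levels differed widely between members. Means over all mice were at least 10 FPKM for 23 members, 1 to 10 FPKM for 6, 0.1 to 1 FPKM for 5 and below 0.1 FPKM for 6. The 6 lowest were genes known from muscle, retina and sensory ganglia: Cacna1s and Scn4a of skeletal muscle, Cacng1 of the same muscle channel, Cacna1f of photoreceptors, and Scn10a and Scn11a of pain-sensing neurons. Their values ran from 0 to 0.18 FPKM in single mice, with means from 0.0122 FPKM (Scn10a) to 0.0861 FPKM (Cacna1f). Scn10a and Cacng1 were each listed at 0 in 10 of the 23 mice. Expressed as fragments, the mean was 0.781 per mouse for Cacng1 and 9.64 for Cacna1f, so these genes cannot be compared between groups with any precision.

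**Figure D1:**
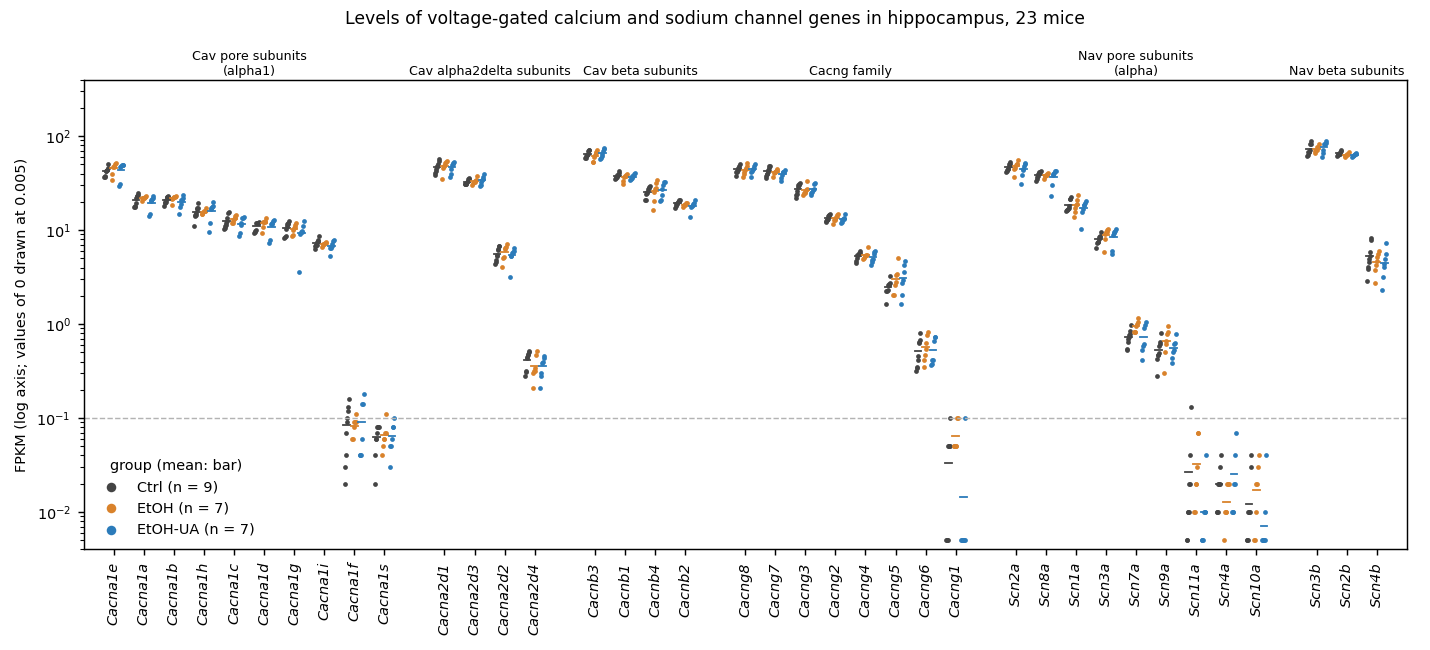
FPKM of 38 channel genes in each mouse (points; log axis, values of 0 drawn at 0.005) by subunit class, with group means as bars for 9 Ctrl, 7 EtOH and 7 EtOH-UA mice. The 6 members below the dashed line at 0.1 FPKM stood lowest, and the groups overlapped for every member.

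Among the pore subunits of calcium channels, Cacna1e, the R-type channel, was the most abundant, with 42.3 ± 4.58 FPKM in Ctrl mice, 45.4 ± 6.52 in EtOH mice and 43.2 ± 8.98 in EtOH-UA mice (mean ± SD, n = 9, 7 and 7, as for all group values below). It made up 30.6% of the summed FPKM of the 10 alpha1 genes and was above the next gene in 23 of 23 mice without overlap of the ranges. Cacna1a, the P/Q-type channel of presynaptic terminals, had 21.1 ± 2.93, 22.0 ± 0.787 and 19.6 ± 3.54 FPKM in the same order of groups. Cacna1b, the N-type channel of terminals, had 20.9 ± 1.70, 21.8 ± 1.505 and 19.9 ± 3.06 FPKM, and these 2 genes could not be ranked, since Cacna1a was the higher in 13 of 23 mice. Cacna1h, a T-type channel that opens near rest, followed at 15.5 ± 2.49, 15.8 ± 0.822 and 15.8 ± 3.77 FPKM. The L-type genes Cacna1c (12.4 ± 1.99, 13.0 ± 0.976 and 11.7 ± 2.06 FPKM) and Cacna1d (10.999 ± 1.25, 11.8 ± 1.38 and 10.8 ± 2.29 FPKM) kept their order in 21 of 23 mice with overlapping ranges. The other T-type genes were Cacna1g at 10.5 ± 1.66, 10.3 ± 1.25 and 9.29 ± 2.74 FPKM and Cacna1i at 7.30 ± 0.711, 7.14 ± 0.307 and 6.80 ± 0.853 FPKM.

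Of the alpha2delta subunits, Cacna2d1, a binding site of gabapentin, had 47.2 ± 6.29, 48.1 ± 6.53 and 46.7 ± 6.40 FPKM in Ctrl, EtOH and EtOH-UA mice and made up 54.5% of the class. Cacna2d3 followed at 32.8 ± 1.98, 33.2 ± 2.42 and 33.9 ± 3.61 FPKM, below Cacna2d1 in 22 of 23 mice. Cacna2d2 was lower at 5.62 ± 0.916, 5.86 ± 1.09 and 5.40 ± 1.06 FPKM, and Cacna2d4, known from the retina, stood at 0.42 ± 0.0917, 0.354 ± 0.106 and 0.354 ± 0.0924 FPKM. The ranges of these last 3 genes did not overlap. Cacnb3 was the main beta subunit with 64.5 ± 4.94, 62.0 ± 6.82 and 65.5 ± 7.11 FPKM, a share of 43.7% of the class. Below it came Cacnb1 (38.1 ± 2.37, 36.4 ± 3.11 and 37.2 ± 2.30 FPKM), Cacnb4 (25.5 ± 3.19, 26.3 ± 6.29 and 26.9 ± 5.27 FPKM) and Cacnb2 (19.4 ± 1.23, 18.7 ± 0.579 and 18.2 ± 2.22 FPKM). Cacnb3 was above Cacnb1 in 23 of 23 mice without overlap, whereas the ranges of Cacnb1, Cacnb4 and Cacnb2 overlapped from each gene to the next.

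In the Cacng family the AMPA receptor partners led. Cacng8 (44.2 ± 3.77, 43.9 ± 5.16 and 44.2 ± 4.38 FPKM) and Cacng7 (42.3 ± 4.29, 41.7 ± 2.62 and 39.6 ± 3.87 FPKM) could not be ranked, with Cacng8 above Cacng7 in 16 of 23 mice. Cacng3 had 27.6 ± 3.62, 26.6 ± 3.10 and 27.3 ± 3.07 FPKM. Cacng2, also called stargazin, had 13.5 ± 0.976, 13.3 ± 1.03 and 13.1 ± 0.942 FPKM, and its range overlapped that of neither neighbour. Cacng4 followed at 5.33 ± 0.503, 5.43 ± 0.535 and 5.15 ± 0.670 FPKM and Cacng5 at 2.48 ± 0.450, 3.03 ± 1.04 and 3.13 ± 1.12 FPKM. Cacng6, like Cacng1 a gene of the muscle channel, had a mean of 0.538 FPKM over all mice (range 0.32 to 0.82).

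Among sodium channel pores, Scn2a, the main channel of excitatory neurons, had 46.7 ± 4.05, 47.7 ± 6.10 and 44.2 ± 7.21 FPKM in Ctrl, EtOH and EtOH-UA mice. Scn8a, concentrated at the axon initial segment and at nodes, had 38.6 ± 3.01, 38.2 ± 1.72 and 36.6 ± 7.26 FPKM. Scn2a exceeded Scn8a in 23 of 23 mice, by 1.04 to 1.40 times, although the ranges over mice overlapped. Scn1a, prominent in inhibitory interneurons, followed at 18.5 ± 2.62, 18.4 ± 3.31 and 17.0 ± 3.33 FPKM. Scn3a, a channel that is higher in the developing brain, had 7.98 ± 0.929, 8.91 ± 1.56 and 8.48 ± 1.92 FPKM. Scn2a and Scn8a together with Scn1a and Scn3a made up nearly the whole class, with shares of 41.2%, 33.8%, 15.98% and 7.46%. Scn7a, which encodes the atypical sodium-sensing channel Nax, and Scn9a of peripheral neurons had means of 0.793 and 0.58 FPKM. Among the auxiliary genes, Scn3b (72.4 ± 9.71, 73.7 ± 5.71 and 76.4 ± 10.5 FPKM) and Scn2b (65.6 ± 2.99, 63.5 ± 2.50 and 63.3 ± 2.19 FPKM) kept their order in 19 of 23 mice, and both had higher means than any of the pores. Scn4b, a proposed agent of the resurgent sodium current, was low at 5.29 ± 1.79, 4.61 ± 1.13 and 4.52 ± 1.62 FPKM.

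The spread between mice of a group also differed between members. Scn2b was the steadiest, with a within-group SD of 0.06 on the log2(FPKM + 0.1) scale. Scn4b (0.47) and Cacng5 (0.42) varied more. For the 23 members at 10 FPKM or more the median within-group SD was 0.19, against 0.14 over the 6841 genes at that level. The median over the 6 members of 1 to 10 FPKM was 0.28 against 0.20 over 6063 genes, and over the 5 members of 0.1 to 1 FPKM it was 0.38 against 0.40 over 3080 genes.

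Several members lie side by side on a chromosome (GRCm38), and neighbours differed in level by 1.07 to 144 times. On chromosome 2 the sodium channel genes Scn3a, Scn2a, Scn1a, Scn9a and Scn7a follow each other between 65457118 and 66784910. Within this stretch Scn2a was 5.50 times as high as Scn3a, 53.2 kb away, and Scn1a was 31.1 times as high as Scn9a, 39.2 kb away, while Scn7a was 1.37 times as high as Scn9a, 38.3 kb away. On chromosome 6, Cacna1c was 32.6 times as high as Cacna2d4 at a gap of 39.1 kb. On chromosome 7, Cacng8 was 82.1 times as high as Cacng6, which lies 7.32 kb from it, while Cacng7 and Cacng8, 25.8 kb apart, were within 1.07 times. On chromosome 9, Scn2b was 13.3 times as high as Scn4b at a gap of 8.55 kb. On chromosome 11, Cacng4 was 144 times as high as Cacng1 at a gap of 15.9 kb, and 1.86 times as high as Cacng5 at a gap of 79.9 kb. Cacna2d3 was 2.97 times as high as Cacna1d, 317 kb away on chromosome 14, and Scn11a, at the level of few fragments, 1.93 times as high as Scn10a. Some of the sodium channel pores share stretches of sequence. Of the 50-base words in the longest transcript, 8.53% of Scn3a, 7.58% of Scn2a, 5.48% of Scn1a and 5.36% of Scn9a occurred in another member. Of the 100-base words, the shares were 2.95%, 1.53%, 1.22% and 1.96% in the same order. Fragments from these stretches can be split between genes. Scn9a shared most with the more abundant Scn3a, so the shares do not bound the error of its low value.

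The promoters of abundant and scarce members differed in CG content, with exceptions. RefSeq windows from 250 bases before to 50 bases after a start (GRCm38.p6) were matched by symbol for 30 of the 40 members. In the richest window of each gene, the median count of CG dinucleotides was 27.5 in the 22 members at 1 FPKM or more and 6.5 in the 8 below it. The same medians were 22 over 10318 genes at 1 FPKM or more and 5 over 5262 genes below it, so the same order held over the whole table. Some of the abundant members, such as Cacna1c and Cacnb4, had several windows, and none of the 8 scarce members did. Taking the richest window favours genes with more windows. The 150 bases before the start are given for the 3 highest and 3 lowest members whose RefSeq start lies within 50 bases of a GENCODE start. They are chr9:45117726-45117875 on the plus strand for Scn2b, chr15:98634617-98634766 plus for Cacnb3, chr5:15934541-15934690 plus for Cacna2d1, chr9:119825457-119825606 minus for Scn11a, chr11:106349391-106349540 minus for Scn4a and chr9:119719033-119719182 minus for Scn10a. Each is printed 5′ to 3′ on the gene's strand with CG in capitals:
Scn2b: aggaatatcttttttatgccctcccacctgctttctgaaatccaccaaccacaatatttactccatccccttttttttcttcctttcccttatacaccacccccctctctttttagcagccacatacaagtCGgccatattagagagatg
Cacnb3: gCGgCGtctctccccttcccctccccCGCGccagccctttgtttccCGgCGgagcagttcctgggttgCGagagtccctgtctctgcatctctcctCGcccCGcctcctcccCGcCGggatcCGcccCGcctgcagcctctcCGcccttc
Cacna2d1: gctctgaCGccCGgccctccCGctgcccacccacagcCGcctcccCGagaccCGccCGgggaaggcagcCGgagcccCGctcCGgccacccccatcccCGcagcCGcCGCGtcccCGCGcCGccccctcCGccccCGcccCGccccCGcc
Scn11a: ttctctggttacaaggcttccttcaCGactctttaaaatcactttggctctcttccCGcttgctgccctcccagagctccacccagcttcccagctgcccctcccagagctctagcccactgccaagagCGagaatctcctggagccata
Scn4a: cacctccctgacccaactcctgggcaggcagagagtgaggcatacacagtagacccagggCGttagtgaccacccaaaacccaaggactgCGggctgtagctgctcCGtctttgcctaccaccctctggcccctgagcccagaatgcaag
Scn10a: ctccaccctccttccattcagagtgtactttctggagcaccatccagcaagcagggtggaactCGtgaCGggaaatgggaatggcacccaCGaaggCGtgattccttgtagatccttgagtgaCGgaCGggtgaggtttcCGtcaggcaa
Cacna2d1 held 21 CG and Cacnb3 14, against 3 in Scn11a, 3 in Scn4a and 7 in Scn10a. Scn2b, at 64.3 FPKM the highest of these 6, held 1, fewer than any of the 3 low genes. Over the whole window, the printed start of Cacnb3 held 29 CG and another start of this gene 7.

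The first comparison asked whether long-term alcohol changed the channel genes. In EtOH against Ctrl mice, 19 of the 34 members above the filter (a mean of at least 0.1 FPKM) were higher in mean and 15 lower, with a median log2 fold change of 0.02 against -0.003 over all genes. In the limma fit, 0 of 34 members passed an adjusted p under 0.05 (smallest adjusted p 0.999), as did 0.0% of the 15985 genes. At an unadjusted p under 0.05 there was 1 member of 34, beside 3.05% of all genes. For the 23 members at 10 FPKM or more, the 95% intervals of the fold (EtOH over Ctrl) lay between 0.779 and 1.26, the widest being that of Cacna1g. Each interval holds for its own gene only, and none is adjusted for a difference between the groups in slope.

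The member at an unadjusted p under 0.05 was Scn7a, the Nax channel of sodium-sensing glia. Ctrl mice had 0.53 to 0.99 FPKM with a median of 0.73. In the EtOH group the values were 0.82 to 1.17 FPKM with a median of 0.96, and under UA they were 0.42 to 1.06 FPKM with a median of 0.61. All 7 EtOH mice lay above the Ctrl median, and the ranges overlapped. The log2 fold change (EtOH minus Ctrl) was 0.36 (SE 0.15, limma p = 0.029, adjusted p = 0.999), and the two-sided exact permutation p was 0.00813, the smallest such p among the 40 members in this comparison. The mean level corresponds to about 98.5 fragments per mouse. Leaving out the Ctrl mouse at 0.53 or 0.54 FPKM or the EtOH mouse at 1.05 or 1.17 FPKM took the unadjusted p past 0.05, and the log2 fold change stayed between 0.31 and 0.41 over all mice left out in turn. It depended on the pseudocount, being 0.18 with 1 FPKM in place of 0.1. Sums of marker genes of other cells overlapped between all groups. The summed FPKM of 5 astrocyte markers had medians of 476, 503 and 498 in the order Ctrl, EtOH, EtOH-UA (ranges 434 to 579, 483 to 553 and 439 to 581). That of 6 oligodendrocyte lineage markers had medians of 1121, 1531 and 1219 (ranges 910 to 1939, 1184 to 1724 and 999 to 2032). The sum of 5 choroid plexus markers had medians of 60.5, 1275 and 1853 FPKM (ranges 7.89 to 2967, 69.4 to 5741 and 16.1 to 7809). Their part in the Scn7a values was not tested.

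The other members named by rank were further from the threshold. Scn9a, a channel of sensory and sympathetic neurons, had 0.28 to 0.80 FPKM in Ctrl (median 0.49) and 0.30 to 0.96 FPKM in EtOH mice (median 0.66), with a log2 fold change of 0.25 (SE 0.19, limma p = 0.187, exact p = 0.239). Like Scn7a it had a mean below 1 FPKM. On the lower side, Cacna2d4 had 0.28 to 0.52 FPKM in Ctrl (median 0.45) and 0.21 to 0.52 FPKM in EtOH mice (median 0.32), a log2 difference of -0.21 (SE 0.16, limma p = 0.205, exact p = 0.202). Cacnb1 ranged from 34.6 to 42.5 FPKM (median 38.5) and from 31.2 to 39.7 (median 37.7), a log2 difference of -0.07 (SE 0.05, limma p = 0.210, exact p = 0.233). Scn2b ranged from 61.7 to 70.5 FPKM (median 64.4) and from 60.7 to 67.8 (median 63.3), a log2 difference of -0.05 (SE 0.04, limma p = 0.222, exact p = 0.161). The ranges of the 2 groups overlapped for each of these 4 genes, and each adjusted p was 0.999.

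**Figure D2:**
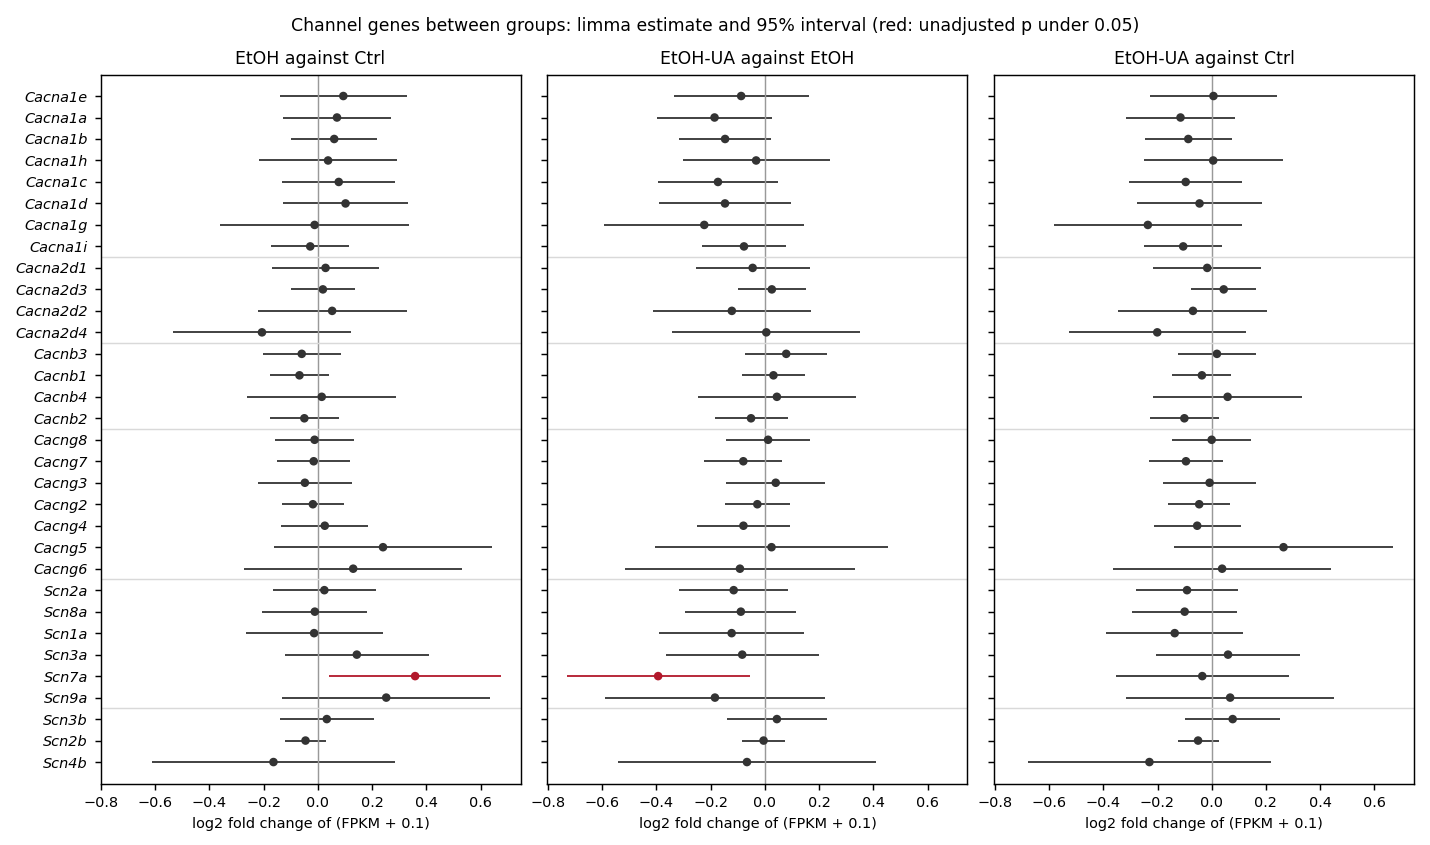
Log2 fold change of (FPKM + 0.1) with 95% intervals from limma for 32 members above the filter in the 3 comparisons, by subunit class. Only Scn7a (red) has an unadjusted p under 0.05, at 0.36 for EtOH against Ctrl and -0.39 for EtOH-UA against EtOH mice.

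By class, 6 of 8 calcium channel pores and 5 of 7 sodium channel pores were higher in mean in EtOH mice, while 3 of 4 Cacnb genes and 3 of 4 sodium channel beta subunits were lower. This split also went with transcript length. Of the 21 members with a transcript of at least 5 kb, 14 were higher, against 5 of the 13 with shorter transcripts. Across the 34 members, fold change and transcript length had a Spearman's rho of 0.45. Mean slopes were 0.0005 in Ctrl and 0.022 in EtOH mice, and their part was not tested. The 3 mice of low slope, of which the EtOH mouse enters this comparison, are all on ethanol. Leaving them out left the EtOH mice with slopes from -0.008 to 0.067, against -0.060 to 0.061 in Ctrl mice. The part of this difference in slope was not tested. Without the 3 mice, 22 of 34 members were higher and 6 had an unadjusted p under 0.05, beside 12% of all genes in that fit. Among them were Scn3a (0.24), Scn7a (0.39), Scn9a (0.40), Cacna1e (0.16) and Cacna1d (0.16), with log2 fold changes as given, and adjusted p from 0.335 to 0.376. Members past an adjusted p under 0.05 numbered 0 there too. With array quality weights, which count less reliable libraries less, 5 members had an unadjusted p under 0.05 (among them Scn9a, Scn7a and Scn3a, all higher), beside 8.78% of all genes.

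The next comparison asked what UA changed in mice on ethanol. In EtOH-UA against EtOH mice, 10 of 34 members were higher in mean and 24 lower, with a median log2 fold change of -0.08 against 0.003 over all genes. The lower members included 8 of 8 calcium channel pores and 7 of 7 sodium channel pores above the filter, whereas 3 of 4 Cacnb genes were higher. In limma, 0 of 34 members passed an adjusted p under 0.05 (smallest 0.900), as did 0.0% of all genes. At an unadjusted p under 0.05 there was 1 member of 34, beside 3.27% of all genes. For the 23 members at 10 FPKM or more, 95% intervals of the fold lay between 0.663 and 1.26.

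Scn7a was again the member with the smallest p. Its log2 fold change (EtOH-UA minus EtOH) was -0.39 (SE 0.16, limma p = 0.0243, adjusted p = 0.900), with an exact permutation p of 0.053. It was -0.19 with a pseudocount of 1 FPKM. With a mouse left out in turn it ranged from -0.48 to -0.29, and the unadjusted p passed 0.05 without the EtOH mouse at 1.17 FPKM or the EtOH-UA mouse at 0.42 or 0.53 FPKM. Of the 7 EtOH-UA mice, 4 lay between 0.42 and 0.61 FPKM, below all EtOH mice, and 3 between 0.91 and 1.06 FPKM, inside the EtOH range. The EtOH mice enter both comparisons, so the 2 differences of Scn7a are not independent. Against Ctrl mice, EtOH-UA mice differed by -0.04 (SE 0.15, exact p = 0.841).

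Cacna1a, the P/Q-type channel, had 20.5 to 23.1 FPKM without UA (median 22.0) and 14.2 to 23.2 FPKM with UA (median 21.0). The 2 lowest EtOH-UA mice, at 14.2 and 14.98 FPKM, were those with the lowest slopes, and the other 5 lay between 20.3 and 23.2 FPKM. Its log2 fold change was -0.19 (SE 0.10, limma p = 0.0825, exact p = 0.113). Cacna1b, the N-type channel, ranged from 18.6 to 23.1 FPKM (median 22.3) and from 14.7 to 23.9 (median 20.9), with a log2 fold change of -0.15 (SE 0.08, limma p = 0.0866, exact p = 0.153). The 2 lowest EtOH-UA mice were again the 2 of low slope. In the other direction, Cacnb3 had 53.4 to 71.1 FPKM without UA (median 62.4) and 57.0 to 74.4 FPKM with UA (median 64.6), a log2 difference of 0.08 (SE 0.07, limma p = 0.296, exact p = 0.366). For this gene of short transcripts, the 2 highest EtOH-UA mice were the 2 of low slope. Cacnb1 ranged from 31.2 to 39.7 FPKM (median 37.7) and from 34.0 to 40.3 (median 37.9), a log2 difference of 0.03 (SE 0.06, limma p = 0.577, exact p = 0.5997). The ranges of the 2 groups overlapped for each of these genes, with adjusted p from 0.900 to 0.930.

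**Figure D3:**
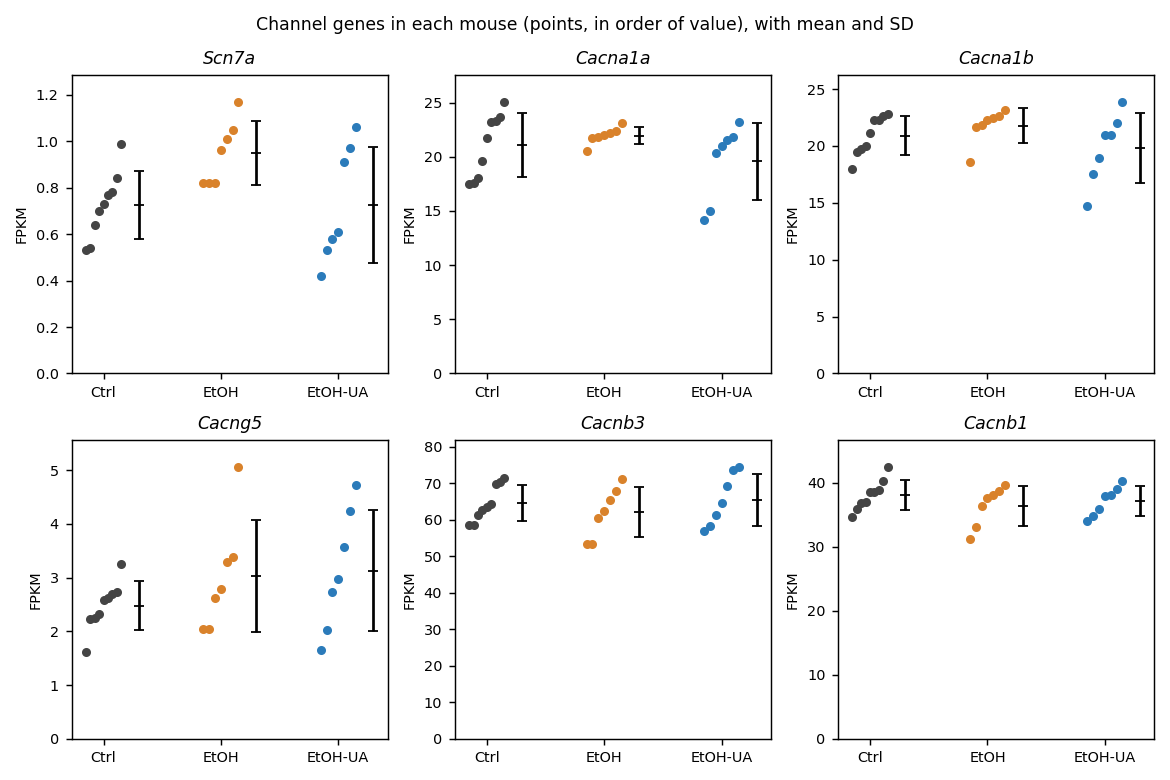
FPKM of 6 channel genes in each mouse (points, in order of value) with mean and SD for 9 Ctrl, 7 EtOH and 7 EtOH-UA mice, on linear axes from 0. The groups overlap in each panel, and 2 EtOH-UA mice lie apart at 14.2 and 14.98 FPKM for Cacna1a.

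Across members, the difference between EtOH-UA and EtOH mice went with transcript length. Of the 21 members with a transcript of at least 5 kb, 19 were lower in EtOH-UA mice (median log2 fold change -0.11), and of the 13 with shorter transcripts 5 were lower (median 0.02). Across the 34 members, the fold change and transcript length had a Spearman's rho of -0.63, a description over genes that share the same libraries. The EtOH-UA mouse at a slope of -0.21 was the lowest of all 23 mice for 15 of the 29 members at 1 FPKM or more, among them Cacna1a (14.2 FPKM), Cacna1g (3.62 FPKM), Scn1a (10.4 FPKM) and Scn8a (22.9 FPKM). Without this mouse, the median of the 34 members was -0.006, with 15 higher and 19 lower, and 2 of 8 calcium channel pores and 1 of 7 sodium channel pores were higher. Without the 3 mice of low slope the median was -0.010, again with 15 higher and 19 lower, and 1 member had an unadjusted p under 0.05 (Scn7a, -0.43), beside 2.85% of all genes. With the slope as a covariate in the fit, the median was -0.004. The slope was computed from the same expression values, members included, so this fit is no independent check. The part of the slope in the difference between the groups was not tested. With array weights, 2 members had an unadjusted p under 0.05 (among them Scn7a, lower), beside 5.41% of all genes.

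**Figure D4:**
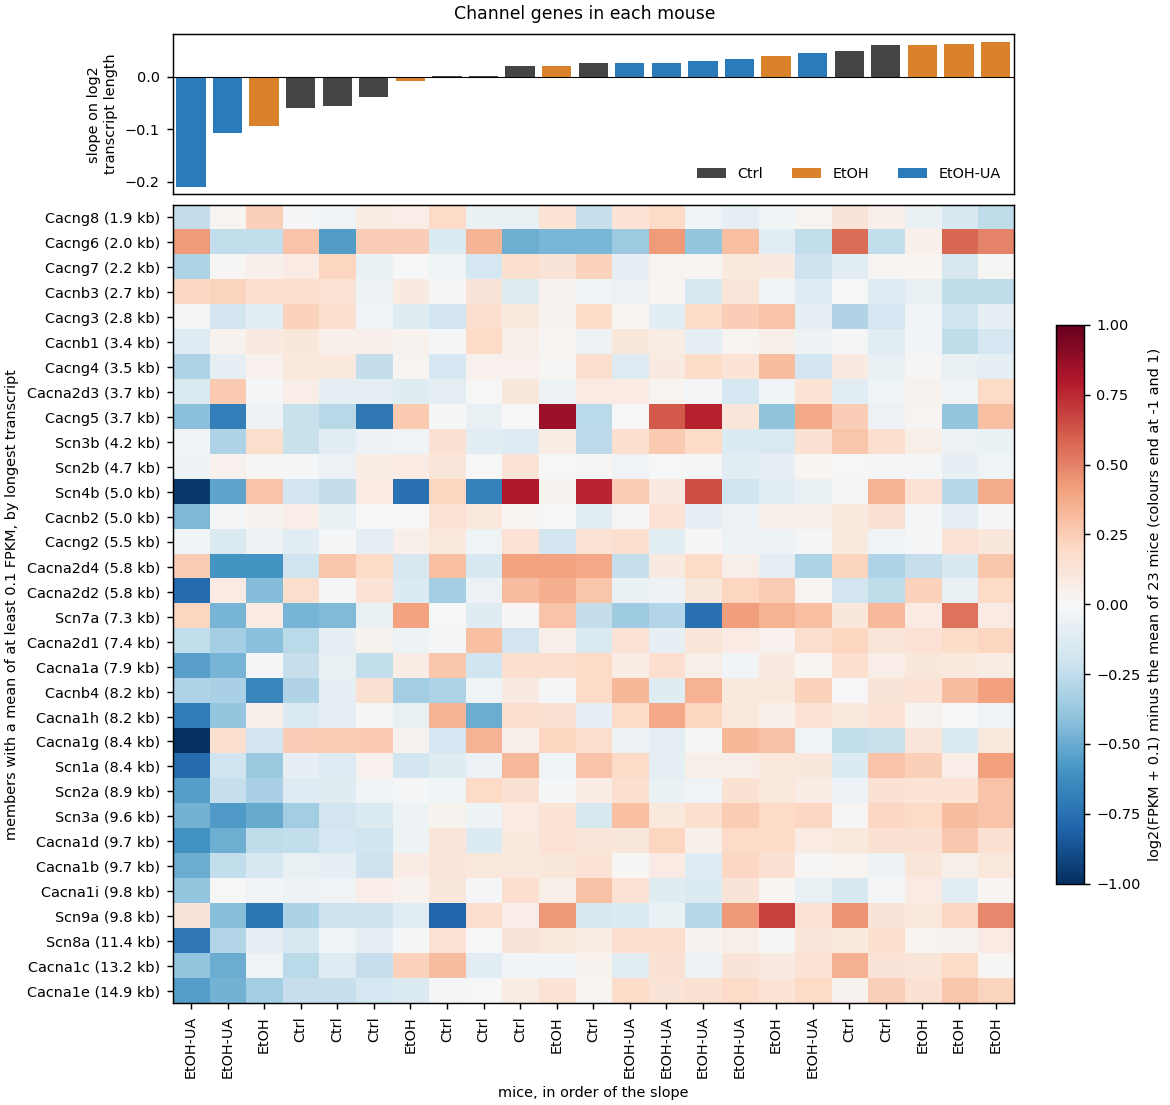
Deviation of each member's log2(FPKM + 0.1) from its mean over 23 mice, with members ordered by longest transcript (short at the top) and mice by the slope of expression on log2 transcript length, shown as bars above. In the 3 mice at the left, with slopes of -0.21, -0.11 and -0.09, most long members are low and Cacnb3 is high.

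EtOH-UA mice were also compared with Ctrl mice, to see whether they differed from animals without alcohol. Of 34 members, 10 were higher and 24 lower in mean in EtOH-UA mice, with a median log2 fold change of -0.05 against 0.002 over all genes. In limma, 0 members passed an adjusted p under 0.05 (smallest 0.999), as did 0.0% of all genes, and 0 members had an unadjusted p under 0.05, beside 3.08% of all genes. Cacng5, a TARP, had the smallest p of the higher members: its values were 1.62 to 3.25 FPKM in Ctrl (median 2.59) and 1.65 to 4.73 FPKM in EtOH-UA mice (median 2.97), a log2 difference of 0.26 (SE 0.20, limma p = 0.189, exact p = 0.215). Scn3b ranged from 61.2 to 89.0 FPKM (median 68.4) and from 59.4 to 88.2 (median 81.8), a log2 difference of 0.08 (SE 0.08, exact p = 0.443). Cacna2d3 ranged from 30.8 to 35.9 FPKM (median 32.1) and from 29.4 to 39.7 (median 33.8), a log2 difference of 0.04 (SE 0.06, exact p = 0.474). Among the lower members, Cacnb2 ranged from 17.4 to 20.9 FPKM (median 19.7) and from 13.7 to 20.8 (median 18.6), a log2 difference of -0.10 (SE 0.06, limma p = 0.113, exact p = 0.179). Cacna1i ranged from 6.33 to 8.70 FPKM (median 7.01) and from 5.35 to 7.82 (median 6.71), a log2 difference of -0.11 (SE 0.07, limma p = 0.146, exact p = 0.213). Cacng7 ranged from 36.3 to 48.2 FPKM (median 41.8) and from 33.3 to 44.1 (median 41.4), a log2 difference of -0.10 (SE 0.07, limma p = 0.159, exact p = 0.215). Each of these 6 genes overlapped between the groups, with an adjusted p of 0.999.

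The direction of this comparison depended on the libraries of low slope. The 3 mice are all on ethanol, so leaving them out also shifted the slope between groups. The EtOH-UA mice left had slopes from 0.026 to 0.045, against -0.060 to 0.061 in Ctrl mice. The part of this difference in slope was not tested. Without the 3 mice, 22 of 34 members had the higher mean in EtOH-UA mice and 12 in Ctrl mice, with a median of 0.03 against -0.002 over all genes. In that fit 5 members had an unadjusted p under 0.05, beside 7.98% of all genes. Among them were Scn3a (log2 fold change 0.27), Cacng5 (0.53), Cacna1e (0.20) and Cacna1h (0.22). Their adjusted p was 0.618, and 0 members passed an adjusted p under 0.05. With array weights, 3 members had an unadjusted p under 0.05 (Scn3a, Scn3b and Cacng5, all higher), beside 6.68% of all genes.

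Exact permutation tests were run for all 40 members in the 3 comparisons. They were not run over all genes, so no share of all genes can be set beside their count. Of these 120 tests, 2 gave a p under 0.05. Besides Scn7a in EtOH against Ctrl mice, this was Cacng1 in EtOH-UA against EtOH mice (exact p = 0.00466), a gene below the filter that is named after its values were seen. Cacng1 was listed at 0 in 6 of 7 EtOH-UA, 0 of 7 EtOH and 4 of 9 Ctrl mice, and its other values were 0.05 and 0.10 FPKM. A value of 0.05 FPKM corresponds to about 1.06 fragments, so the difference rests on single fragments.

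Other genes that bind, place or regulate these channels were followed as a list of 44 symbols, of which 41 were above the filter. Fam155a and Fam155b were also listed under their newer names Nalf1 and Nalf2, so the list holds fewer genes than symbols. In limma, 0 of the 41 passed an adjusted p under 0.05 in any of the 3 comparisons. At an unadjusted p under 0.05 there was 1 in EtOH against Ctrl mice (2.44%, beside 3.05% of all genes), 2 in EtOH-UA against EtOH mice (4.88% beside 3.27%) and 0 in EtOH-UA against Ctrl mice (beside 3.08%), shares near those of the whole table. Cabp1, a calmodulin-like regulator of calcium channels, had 36.7 ± 3.23 FPKM in Ctrl and 32.9 ± 3.96 in EtOH mice (log2 fold change -0.16, SE 0.07, limma adjusted p = 0.999). Next were Gem, a GTPase that inhibits calcium channels, at 0.481 ± 0.151 and 0.61 ± 0.138 FPKM (0.31, SE 0.16, limma adjusted p = 0.999), and Fgf14, which binds sodium channels at the axon initial segment, at 13.8 ± 1.26 and 15.2 ± 1.62 FPKM (0.13, SE 0.07, limma adjusted p = 0.999). Between EtOH and EtOH-UA mice, Rims1, which tethers calcium channels at the active zone, had 36.3 ± 2.68 and 32.3 ± 3.28 FPKM (-0.17, SE 0.07, limma adjusted p = 0.900). Ppp3r1, the regulatory subunit of calcineurin, had 423 ± 16.2 and 475 ± 40.1 FPKM (0.16, SE 0.07, limma adjusted p = 0.900), and Fgf14 had 15.2 ± 1.62 and 13.6 ± 1.32 FPKM (-0.15, SE 0.08, limma adjusted p = 0.900). For EtOH-UA against Ctrl mice the genes with the 3 smallest p included Caln1 (36.5 ± 7.33 and 40.7 ± 3.74 FPKM, limma adjusted p = 0.999) and Rims4 (12.7 ± 1.69 and 14.3 ± 2.67 FPKM, limma adjusted p = 0.999).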

How the data were processed

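The authors deposited 1 table of FPKM to 2 decimals. The paper's methods name poly(A)+ RNA, a BGISEQ-500 instrument, mm10, Bowtie2 and RSEM; the annotations of the samples give total RNA and MGISEQ, and the submitters' processing notes also HISAT2 2.1.0, Bowtie2 2.2.5, RSEM 1.2.8, StringTie and DESeq. Strand handling is not given in the sources used here, so it is not known whether overlapping antisense genes were separated. All 9 Ctrl mice were used; p-values measure the spread between these mice.

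The 15985 genes whose mean reached 0.1 FPKM were fitted as log2(FPKM + 0.1) with limma 3.58.1 (R 4.3.3), 1 model of 3 groups with an intensity trend, and Benjamini-Hochberg adjustment over all genes tested. Fold changes are on that scale and understate changes of low genes. Each member also got an exact permutation test of its mean log2 value, two-sided, over 11440 or 3432 divisions of the mice (Python 3.11.15). The script was tested on simulated data. Members and lists were chosen with earlier results of these data known. Named were members at 1 FPKM or more and, per comparison, the 3 members in each direction and the 3 partner genes with the smallest p. Coordinates and promoters come from RefSeq GRCm38.p6 and transcript lengths from GENCODE M21. Some genes that these rules would name are not reported here. The fit without 3 libraries was added after the data had been seen.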

Additional observations from a re-analysis of the deposited data

Results flagged for a closer look

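Within each group, the distance of the highest or lowest mouse from its nearest neighbour was divided by the whole range, on the log2(FPKM + 0.1) scale. Of 96 sets of values (32 members in 3 groups), 7 passed the 95% critical value, where chance flags about 1 in 20 groups, or 4.8 here.

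In EtOH-UA mice, the lowest mouse stood apart for Cacna1g (3.62 FPKM, next 9.18, ratio 0.753), Cacna2d2 (3.18, next 5.29, ratio 0.720), Cacnb2 (13.73, next 17.74, ratio 0.617) and Scn1a (10.4, next 15.46, ratio 0.592). All 4 values belong to the mouse with the length slope of -0.21.

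In EtOH mice, the lowest mouse stood apart for Cacna1b (18.56 FPKM, next 21.66, ratio 0.703) and Cacna2d1 (35.18, next 45.35, ratio 0.583). These 2 values belong to the EtOH mouse with the slope of -0.09. For Cacng4 the highest EtOH mouse had 6.56 FPKM and the next 5.44 (ratio 0.665).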

How the results depend on the processing

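The alternatives were pseudocounts of 1 and 0.01, no filter, a filter at 1 FPKM, only the 2 groups compared, upper-quartile and quantile scaling, robust eBayes, array quality weights, the length slope as a covariate, each mouse left out in turn and, chosen after seeing the data, the fit without the 3 mice of low slope. Under all of them 0 members passed an adjusted p under 0.05, and the lowest adjusted p of a member named by rank in a comparison was 0.374, without the 3 mice. The median log2 fold change of the members ran from -0.018 to 0.037 in EtOH against Ctrl mice, from -0.108 to -0.0002 in EtOH-UA against EtOH mice and from -0.066 to 0.033 in EtOH-UA against Ctrl mice. Where a value below moved, the cause was not tested unless the setting itself shows it.

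Members at an unadjusted p under 0.05 numbered 1 in EtOH against Ctrl mice. Over all genes, 487 had such a p. The count of members became 0 with the filter at 1 FPKM, which leaves Scn7a out, beside 248 of all genes. It was 0 with quantile scaling (554 genes), 5 with array weights (8.78% of all genes) and 6 without the 3 mice (12%). With a mouse left out it was 0 to 2, beside 315 to 938 genes. In EtOH-UA against EtOH mice the count of 1 became 2 without a filter (Cacng1 added, beside 675 of all genes). It was 0 with the filter at 1 FPKM (392 genes) and 2 with array weights (5.41% of all genes). With a mouse left out it was 0 to 3, beside 307 to 1240 genes. A count of 3 came without the EtOH mouse of low slope (1240 of all genes, against 523 with all mice). It also came without the EtOH-UA mouse with 1.06 FPKM of Scn7a (994 genes). Scn7a and Cacna1b were among the 3 both times. In EtOH-UA against Ctrl mice the count of 0 became 3 with array weights (6.68% of all genes) and 5 without the 3 mice (7.98%). It was 2 with the covariate (Cacna1e, Scn3a, beside 855 of all genes against 492). With a mouse left out it was 0 to 1, beside 346 to 728 genes. Over all genes, the count past an adjusted p of 0.05 was 1 in EtOH against Ctrl mice with array weights, and 0 to 1 in each comparison with a mouse left out.

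Cacnb1 in EtOH-UA against EtOH mice had a log2 fold change of 0.03 and ranged from -0.0046 to 0.053 with a mouse left out. The other members named by rank kept their direction in the comparison that named them. With a pseudocount of 1, Scn7a moved from 0.36 to 0.18 in EtOH against Ctrl mice and from -0.39 to -0.19 in EtOH-UA against EtOH mice. No paired analysis was possible because the columns carry no replicate numbers. Depth limits members below 0.1 FPKM most.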

Other observations

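Short motifs were searched in the 41 RefSeq promoter windows (300 bases) of the 30 matched members, as a description of letters only. TATAAA on the gene's strand was found in 2 of 41 windows, 1 each of Cacna1d and Scn2a, beside 8.32% of 32851 windows of all genes. GGACAG, part of the element bound by the repressor REST, was found on either strand in 7 of 41 windows (Cacnb1, Cacnb3, Cacng5, Cacng6, Cacng8 and Scn8a, Cacng5 in 2 of them), beside 22.2% of all windows.

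Within the calcium channel pores, the share of Cacna1e in the summed FPKM in the order Ctrl, EtOH, EtOH-UA was 30.0% ± 1.83, 30.7% ± 2.50 and 31.4% ± 1.67 (mean ± SD). That of Scn2a among sodium channel pores was 41.2% ± 1.56, 41.3% ± 1.26 and 41.1% ± 1.60. Scn3a had shares of 7.03% ± 0.481, 7.67% ± 0.717 and 7.82% ± 0.794. Among the Cacng genes, Cacng5 had shares of 1.83% ± 0.351, 2.24% ± 0.707 and 2.33% ± 0.756. These shares were not tested.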
